A study of Mus musculus with 16 samples.

Results

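The 10 genes described here encode cytokines, chemokines and feedback regulators that are textbook targets of NF-kB: Tnf, Ccl20, Cxcl1, Cxcl5, Cxcl16, Csf1, Nfkbia, Tnfaip3, Birc3 and Relb. They were chosen by name with earlier results of these data known, so their counts beside those of all genes are descriptions. Each symbol matched 1 Ensembl gene among the 46078 in the deposited counts. Their RNA was measured by RNA sequencing in 16 libraries of mouse intestinal organoids, crypt epithelium grown as closed structures in a gel matrix, of background strain C57BL6. The libraries fall into 6 groups: APCCM at day 4, WTCM at day 4, APCCM at day 2 and WTCM at day 2, with 3 libraries each, and untreated Apc mutant and untreated wild type at day 2, with 2 libraries each.

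Per the labels' protocols, crypts came from Lgr5-EGFP-IRES-CreERT2 mice (wild type), or from Apcfl/fl mice that carried Lgr5-EGFP-IRES-CreERT2 or Villin-CreERT2. The Lgr5 promoter drives Cre in crypt base stem cells and the Villin promoter drives it across the intestinal epithelium, and the labels do not say which line gave which library. Apc, the tumour suppressor that restrains Wnt signalling, was recombined in culture with 4OH-Tamoxifen. Mutant organoids were marked with a Venus construct and wild type organoids with mCherry. All groups received EGF, R-spondin and Noggin. The sources used here do not give the number of mice, and p-values measure the spread between these libraries, which may be technical.

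APCCM and WTCM are the names in the library titles. The genotype label calls the APCCM libraries Apc mutant and the WTCM libraries WT, while the treatment label names Apc mutant conditioned medium for all 12. From the labels, a difference of the treated cells and a difference in the source of the medium cannot be told apart. The series' design text also pairs treatments and days in another way than the sample labels, which are followed here. Notum and Nkd1, Wnt targets that rise when Apc is lost, checked the genotype label. Notum averaged 0.459 ± 0.163 CPM in APCCM and 0.809 ± 0.22 CPM in WTCM libraries at day 4, and 0.676 ± 0.0728 CPM in APCCM and 0.383 ± 0.219 CPM in WTCM libraries at day 2 (SD, n = 3 each). It averaged 285 ± 38.6 CPM in untreated Apc mutant libraries and 0.273 ± 0.0769 CPM in untreated wild type libraries (SD, n = 2 each). Nkd1 was lower in APCCM than in WTCM libraries at day 2 (log2 fold change -1.18 ± 0.19, adjusted p = 6.9e-05). The 6 libraries labelled Apc mutant in conditioned medium therefore went against that label, and they are called APCCM libraries throughout.

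NF-kB transcription factors are dimers of the RelA, RelB, c-Rel, p50 and p52 proteins, held inactive by IkB proteins. Signals from TNF, interleukin-1 or Toll-like receptors activate kinases that mark IkB for destruction, and the freed dimers enter the nucleus and bind kappaB sites. Their targets include cytokines and chemokines that attract and instruct leukocytes, and also the inhibitors Nfkbia and Tnfaip3, which shut the signal off again. In the intestine, epithelial cells are one source of such chemokines after contact with microbial products or cytokines.

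The promoter sequences below show what stands upstream of Tnf and Ccl20, 2 of the genes with the largest differences, and of Nfkbia, Cxcl1 and Csf1, whose windows also hold kappaB matches. RefSeq windows (GRCm38.p6), running from 250 bases before to 50 bases after a gene's start, were matched for 7 of the 10 genes. Cxcl5, Cxcl16 and Relb had no matched window. The kappaB consensus (GGGRNNYYCC, with R for A or G, Y for C or T and N for any base) was settled on after other spellings had been tried. It was found, on either strand, in windows of 5 of the 7 genes (Nfkbia, Ccl20, Cxcl1, Tnfaip3 and Csf1), and in 8.46% of 32851 windows of 27025 genes. These shares are unlike, since the first counts genes with any match and the second counts windows. Tnfaip3 also had a window without a match. It was not found in the windows of Tnf and Birc3. Only the bases before the gene's start are printed, 5′ to 3′ on the gene's own strand, and capitals mark consensus matches, merged where they overlap. A match describes the letters and does not show that a factor binds, and its absence concerns this window alone.
Nfkbia (chr12:55492648-55492897, minus strand): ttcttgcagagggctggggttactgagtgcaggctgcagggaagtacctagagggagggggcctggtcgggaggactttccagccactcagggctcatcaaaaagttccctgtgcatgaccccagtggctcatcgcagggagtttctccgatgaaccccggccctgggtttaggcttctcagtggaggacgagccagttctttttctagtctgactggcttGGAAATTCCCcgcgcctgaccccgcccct
Cxcl1 (chr5:90890995-90891240, plus strand): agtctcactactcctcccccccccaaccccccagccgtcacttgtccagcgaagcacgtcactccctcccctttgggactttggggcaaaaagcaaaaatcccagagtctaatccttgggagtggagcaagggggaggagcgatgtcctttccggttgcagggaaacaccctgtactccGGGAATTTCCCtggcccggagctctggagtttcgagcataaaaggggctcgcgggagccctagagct
Csf1 (chr3:107760470-107760719, minus strand): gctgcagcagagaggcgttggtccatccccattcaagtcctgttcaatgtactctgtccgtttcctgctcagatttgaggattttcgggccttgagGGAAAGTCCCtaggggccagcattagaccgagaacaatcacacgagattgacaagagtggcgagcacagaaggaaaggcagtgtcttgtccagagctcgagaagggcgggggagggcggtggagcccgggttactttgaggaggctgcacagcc
Ccl20 (chr1:83116516-83116765, plus strand): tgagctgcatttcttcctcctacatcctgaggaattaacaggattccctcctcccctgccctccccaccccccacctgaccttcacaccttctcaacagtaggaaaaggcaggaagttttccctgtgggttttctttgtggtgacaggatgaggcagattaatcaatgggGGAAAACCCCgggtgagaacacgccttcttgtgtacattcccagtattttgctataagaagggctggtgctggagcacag
Tnf (chr17:35202008-35202257, minus strand): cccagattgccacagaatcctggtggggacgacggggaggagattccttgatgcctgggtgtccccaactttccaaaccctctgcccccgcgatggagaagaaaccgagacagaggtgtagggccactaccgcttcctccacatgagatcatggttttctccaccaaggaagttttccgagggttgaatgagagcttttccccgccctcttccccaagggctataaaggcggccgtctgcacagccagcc

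Read depth was 17986815 to 29152692 gene counts in the 12 libraries with conditioned medium and 8325979 to 13027701 in the 4 untreated libraries. Levels are given as CPM, a gene's count scaled to a common library total, over library sizes scaled by the trimmed mean of M-values (TMM). Differences are log2 fold changes ± SE from edgeR's quasi-likelihood test, and a gene was called where its Benjamini-Hochberg adjusted p over 16510 tested genes was under 0.05. Replicate 1 of WTCM at day 4 stood apart from its group: its chi-square per degree of freedom against the other 2 libraries was 43.9 and 46.4, while all other replicate pairs gave 3.49 to 6.55. Of its reads, 33.3% mapped to several places, beside 26.5% to 30.1% in the other 11 libraries with conditioned medium. In organoid RNA as a whole, fewer cells of a type and less RNA per cell cannot be told apart.

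In conditioned medium at day 2, 8 of the 10 genes were higher in APCCM than in WTCM libraries, from 1.19-fold for Birc3 to 4.52-fold for Tnf. Of all tested genes, 16.7% were called in that comparison, 8.54% higher and 8.15% lower. The 3 APCCM libraries lay above the 3 WTCM libraries for each of the 8. The share of all tested genes with such a separation was not counted. The median log2 fold change of the 8 was 0.98, beside 0 over all tested genes. The ninth tested gene, Cxcl1, is given apart, since its call rests on 16 against 4 counts. It passed the filter on low counts only through the WTCM libraries at day 4, where it was highest. At day 4, Tnf and Cxcl16 were called higher and no other member was called, while 15.6% of all tested genes were called, 7.83% higher and 7.8% lower. The tenth gene, Cxcl5, had too few counts to test.

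**Figure D1:**
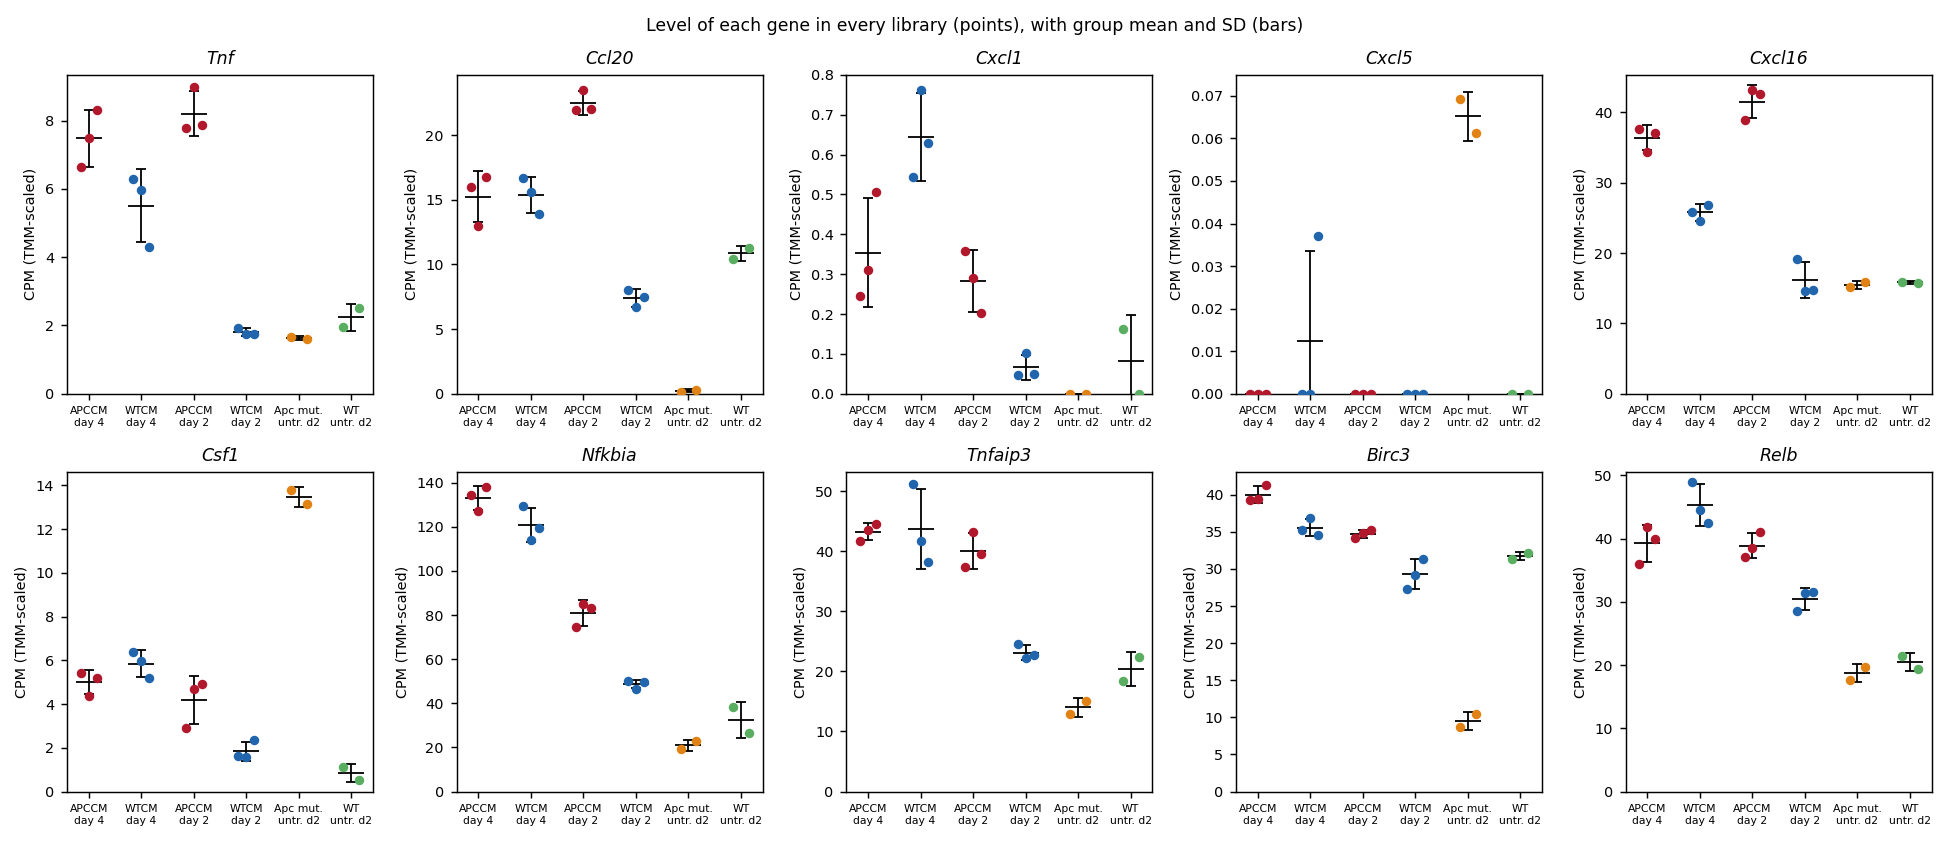
CPM (TMM-scaled, linear axis starting at 0) of each of the 10 genes in every library (points), by group along the horizontal axis, with the group mean and SD as bars, which are clipped at 0. At day 2 the APCCM points lie above the WTCM points for every gene but Cxcl5, and for Csf1 the untreated Apc mutant libraries, at 13.8 and 13.2 CPM, lie above all others.

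Tnf (chromosome 17, 35199381 to 35202007, minus strand, in GRCm38 coordinates of the GENCODE annotation, as for all genes here) encodes tumour necrosis factor, the cytokine that both activates NF-kB and is induced by it. Tnf was at 7.78, 8.98 and 7.86 CPM in APCCM libraries at day 2, against 1.93, 1.74 and 1.74 CPM in WTCM libraries. Every APCCM library stood far above every WTCM library, and the log2 fold change was 2.18 ± 0.17 (adjusted p = 1.2e-09). At day 4, Tnf was at 6.65, 7.49 and 8.31 CPM in APCCM libraries, against 6.29, 5.95 and 4.29 CPM in WTCM libraries. The groups did not overlap, but the nearest libraries were close, and the log2 fold change was 0.46 ± 0.14 (adjusted p = 0.023). That call was lost with DESeq2 (adjusted p = 0.06) and without any 1 of 3 libraries: APCCM replicate 2 (0.058), APCCM replicate 3 (0.13) or WTCM replicate 3 (0.19). Untreated libraries held 1.66 and 1.59 CPM of Tnf in Apc mutant organoids, against 1.96 and 2.51 CPM in wild type organoids, and the difference was not called (log2 fold change -0.44 ± 0.31, adjusted p = 0.23).

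Ccl20 (chromosome 1, 83116766 to 83119167, plus strand) encodes the chemokine that attracts CCR6-bearing lymphocytes and dendritic cells and is made by the epithelium over lymphoid follicles. Ccl20 was at 21.9, 23.5 and 22.0 CPM in APCCM libraries at day 2, against 8.01, 6.69 and 7.52 CPM in WTCM libraries. These groups stood well apart, with a log2 fold change of 1.60 ± 0.11 (adjusted p = 1.2e-10). At day 4 the values were 16, 13.0 and 16.8 CPM in APCCM libraries, against 16.7, 15.6 and 13.9 CPM in WTCM libraries. They overlapped fully, and the log2 fold change was -0.0020 ± 0.10 (adjusted p = 1), with a sign that turned under other scalings.

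Cxcl16 (chromosome 11, 70453983 to 70459984, minus strand) encodes a membrane-bound chemokine, the ligand of CXCR6. Cxcl16 was at 38.9, 43.2 and 42.6 CPM in APCCM libraries at day 2, against 19.2, 14.6 and 14.8 CPM in WTCM libraries (log2 fold change 1.36 ± 0.08, adjusted p = 4e-11). Day 4 gave 37.7, 34.4 and 37.1 CPM in APCCM libraries, against 25.9, 24.6 and 26.9 CPM in WTCM libraries. The groups did not overlap on either day, and the day 4 call (log2 fold change 0.50 ± 0.08, adjusted p = 8e-05) was kept without any 1 library and under every other setting. Exons of Cxcl16 overlap those of Zmynd15, on the opposite strand, by 552 bases. Whether the counting used strand is not stated in those sources, so reads of the 2 genes may not be told apart. Zmynd15 itself was at 0.973 to 1.52 CPM in APCCM and 0.511 to 0.896 CPM in WTCM libraries at day 2.

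Cxcl1 (chromosome 5, 90891241 to 90893115, plus strand) and Cxcl5 (chromosome 5, 90759360 to 90761624, plus strand) encode neutrophil attractants that act through CXCR2. Cxcl1 was near the limit of detection, with 16 counts in all in the 3 APCCM libraries at day 2 (0.358, 0.290 and 0.203 CPM), against 4 counts in the 3 WTCM libraries (0.0460, 0.102 and 0.0498 CPM). The count ratio was 4.35, with a 95% interval from counting error alone of 1.40 to 17.9. Its call (adjusted p = 0.049) was lost without any 1 of the 6 libraries (adjusted p up to 0.15) and without the filter on low counts (0.09). Cxcl1 passed that filter only through the WTCM libraries at day 4, where it was highest. At day 4 it had 23 counts in APCCM and 44 counts in WTCM libraries, and the log2 fold change was -0.83 ± 0.40 (adjusted p = 0.18). Cxcl5 had 2 counts in untreated Apc mutant libraries, 1 count in WTCM libraries at day 4, and 0 counts in the other 4 groups, where 0 counts allow up to 0.0472 CPM in APCCM at day 4, 0.0531 CPM in APCCM at day 2, 0.0489 CPM in WTCM at day 2 and 0.14 CPM in untreated wild type. These limits cover counting error only.

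Csf1 (chromosome 3, 107741048 to 107760469, minus strand) encodes the growth factor of macrophages. Csf1 was at 2.92, 4.69 and 4.92 CPM in APCCM libraries at day 2, against 1.61, 1.58 and 2.34 CPM in WTCM libraries. The lowest APCCM library was not far above the highest WTCM library, and the log2 fold change was 1.17 ± 0.21 (adjusted p = 0.00028). At day 4 Csf1 was at 5.43, 4.39 and 5.19 CPM in APCCM libraries, against 6.40, 5.95 and 5.17 CPM in WTCM libraries. Those ranges overlapped and the difference was not called (log2 fold change -0.21 ± 0.16, adjusted p = 0.44).

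The feedback inhibitors were also higher at day 2, by 1.66-fold for Nfkbia and 1.73-fold for Tnfaip3. Nfkbia (chromosome 12, 55489410 to 55492647, minus strand) encodes IkB-alpha, which binds NF-kB dimers and keeps them out of the nucleus. Nfkbia was at 74.4, 85.1 and 83.3 CPM in APCCM libraries at day 2, against 50.1, 46.5 and 49.4 CPM in WTCM libraries (log2 fold change 0.73 ± 0.08, adjusted p = 3.7e-07). At day 4 it was at 134, 127 and 138 CPM in APCCM libraries, against 129, 114 and 119 CPM in WTCM libraries. One WTCM library then lay inside the APCCM range, and the log2 fold change was 0.14 ± 0.07 (adjusted p = 0.23). Tnfaip3 (chromosome 10, 19000910 to 19015657, minus strand) encodes A20, a ubiquitin-editing enzyme that damps signalling from the TNF receptor. Tnfaip3 was at 37.4, 43.3 and 39.6 CPM in APCCM libraries at day 2, against 24.5, 22.3 and 22.7 CPM in WTCM libraries (log2 fold change 0.79 ± 0.09, adjusted p = 9.5e-07). At day 4 it was at 41.7, 43.6 and 44.6 CPM in APCCM libraries, against 51.2, 41.7 and 38.2 CPM in WTCM libraries. The widest spread was in the WTCM group, whose replicate 1 was the highest of all, and the log2 fold change was -0.0064 ± 0.086 (adjusted p = 0.98). Without that replicate it was 0.12 (adjusted p = 0.40).

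Birc3 (chromosome 9, 7848699 to 7873186, minus strand), which encodes the survival factor cIAP2, and Relb (chromosome 7, 19606217 to 19629438, minus strand), which encodes the subunit of the alternative NF-kB pathway, had the smallest differences between the labels in conditioned medium at day 2. Birc3 was at 34.1, 34.8 and 35.2 CPM in APCCM libraries at day 2, against 27.3, 29.2 and 31.3 CPM in WTCM libraries. The groups did not overlap, and the log2 fold change of 0.25 ± 0.07 (adjusted p = 0.011) was no longer called without WTCM replicate 1 (adjusted p = 0.079). Relb was at 37.1, 38.5 and 41.1 CPM in APCCM libraries at day 2, against 28.5, 31.4 and 31.6 CPM in WTCM libraries (log2 fold change 0.35 ± 0.07, adjusted p = 0.0014). At day 4 neither was called, and both lay near the threshold. Birc3 had a log2 fold change of 0.17 ± 0.06 (adjusted p = 0.071), with all APCCM libraries above all WTCM libraries. It was called higher without TMM scaling (0.038) and in a fit on the 2 compared groups alone (0.035), and lay at the threshold with RLE factors (0.05 as rounded). Relb had one of -0.20 ± 0.07 (adjusted p = 0.051), with all APCCM libraries, at 36.0, 41.8 and 39.9 CPM, below all WTCM libraries, at 48.9, 44.5 and 42.4 CPM. It was called lower without the filter on low counts (0.044), on the 2 compared groups alone (0.03), and without APCCM replicate 2 (0.041) or WTCM replicate 3 (0.039).

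**Figure D2:**
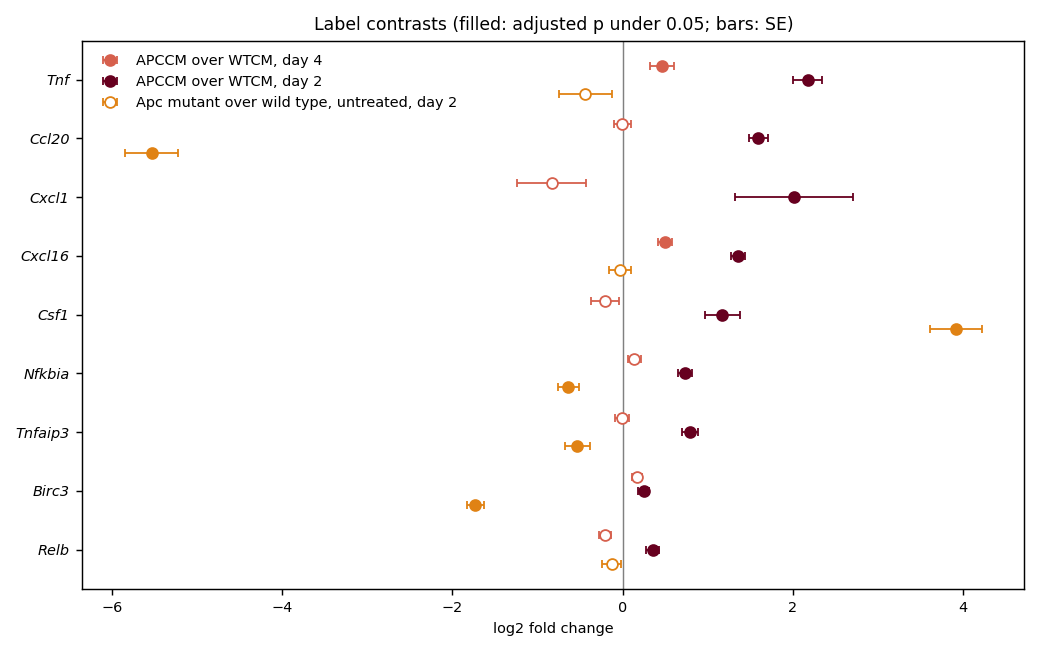
Log2 fold change (horizontal axis) of each gene (vertical axis) between labels at day 4 and day 2 in conditioned medium and in untreated organoids, with bars for the SE and filled points where the adjusted p was under 0.05. The day 2 points lie right of 0, from 0.25 to 2.18, among them that of Cxcl1, which the text gives apart. Ccl20 at -5.53 and Csf1 at 3.92 lie farthest from 0 in untreated organoids. Cxcl5 is not shown, nor is Cxcl1 in untreated organoids, where its libraries held 0 or 2 counts.

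The time course differed between the labels. In conditioned medium, library titles are written in another form at day 4 than at day 2. The noncoding gene Gm26917 took 7.68% to 8.88% of gene counts at day 4 and 9.41% to 11.5% at day 2. Whether the days were also separate sets of libraries is not stated in the sources used here. Day and such a set cannot be told apart. In WTCM libraries 8 genes were higher at day 4 than at day 2, with no overlap between days for any of them. How many of all tested genes had no overlap was not counted. Of all tested genes, 24.1% were called between days and 12.5% were called higher. This comparison shares its 3 WTCM day 2 libraries with the day 2 label comparison, so the 2 counts are not independent. The increases of these 8 in WTCM libraries were largest for Csf1 (3.14-fold) and Tnf (3.00-fold). Nfkbia was 2.48-fold, Ccl20 2.06-fold, Tnfaip3 1.88-fold, Cxcl16 1.59-fold, Relb 1.48-fold and Birc3 1.21-fold higher. Adjusted p-values were between 2.6e-11 for Nfkbia and 0.0027 for Birc3. Without the WTCM day 4 library that stood apart, the 8 were still called, and the log2 fold change of Tnf was 1.49 in place of 1.59. Cxcl1 had 44 counts at day 4 and 4 at day 2 (a count ratio of 9.95 with a 95% interval of 3.62 to 38.2). WTCM at day 4 was its highest group, through which it passed the filter, so its difference is a description only. Marker sums of epithelial cell types moved along in WTCM libraries: goblet cell markers summed to 6596 ± 807 CPM at day 4 and 4168 ± 276 CPM at day 2, and Paneth cell markers to 6263 ± 453 CPM at day 4 and 4641 ± 77.2 CPM at day 2. Enterocyte markers summed to 11080 ± 607 CPM at day 4 and 7853 ± 289 CPM at day 2, and enteroendocrine markers to 763 ± 71.9 CPM at day 4 and 485 ± 12.7 CPM at day 2 (SD, n = 3 each). Stem cell markers summed to 3742 CPM at day 4 and 3636 CPM at day 2, and general epithelial markers to 6684 and 6552 CPM. In APCCM libraries goblet markers summed to 6630 ± 38.6 CPM at day 4 and 5611 ± 478 CPM at day 2. Enterocyte markers there summed to 10040 ± 373 and 7862 ± 182 CPM, and enteroendocrine markers to 1083 ± 47.5 and 833 ± 63 CPM. Paneth markers went the other way, at 5632 ± 179 and 6337 ± 260 CPM. The part of these sums in the members' increases was not tested.

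In APCCM libraries 3 of the 9 genes were called between days, where 23.9% of all tested genes were called. Nfkbia was 1.65-fold higher at day 4 (log2 fold change 0.72 ± 0.08, adjusted p = 2.1e-07), with all day 4 libraries above all day 2 libraries. Birc3 was 1.15-fold higher (log2 fold change 0.20 ± 0.06, adjusted p = 0.022). That call was lost without TMM scaling (adjusted p = 0.06) and without APCCM day 2 replicate 1 (0.073) or APCCM day 4 replicate 3 (0.096). Without APCCM day 2 replicate 2 or 3 it lay at the threshold (0.05 as rounded for each). Ccl20 was lower at day 4, by 1.47-fold (log2 fold change -0.55 ± 0.10, adjusted p = 0.00016). Tnf had a log2 fold change of -0.13 ± 0.13 (adjusted p = 0.55) and Cxcl16 one of -0.19 ± 0.08 (adjusted p = 0.086). Relb, Tnfaip3, Csf1 and Cxcl1 were not called either, with log2 fold changes of 0.01 ± 0.07, 0.11 ± 0.09, 0.27 ± 0.18 and 0.34 ± 0.49.

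**Figure D3:**
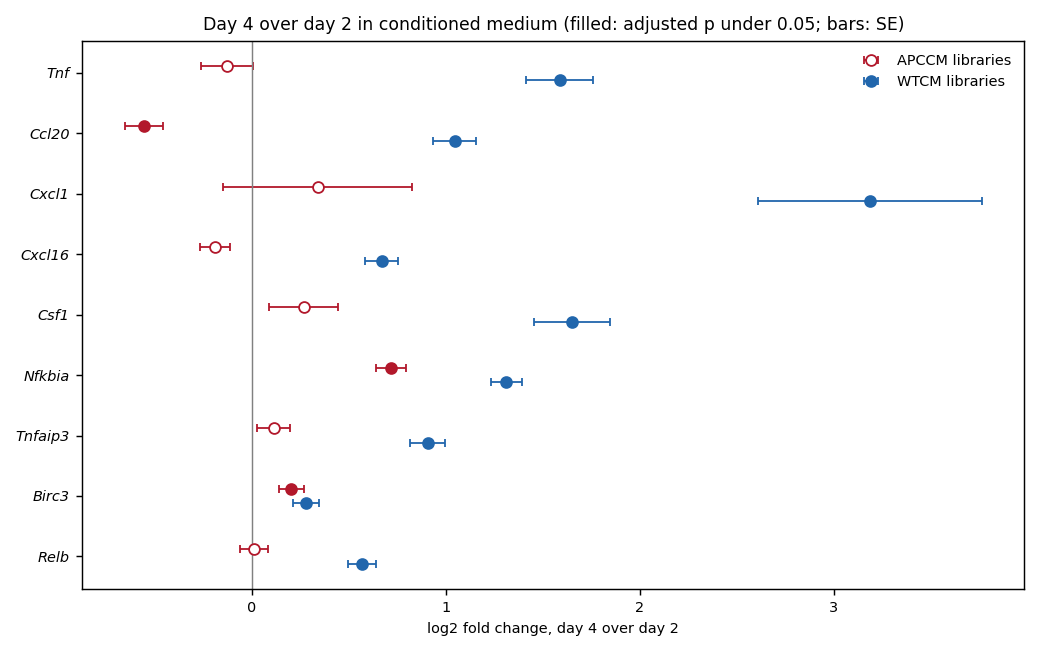
Log2 fold change of day 4 over day 2 (horizontal axis) of each gene (vertical axis) in APCCM and in WTCM libraries, with bars for the SE and filled points where the adjusted p was under 0.05. The WTCM points other than Cxcl1 are filled and lie between 0.28 and 1.65, while the APCCM points lie between -0.55 and 0.72. Cxcl1 in WTCM libraries, filled at 3.19, is a description only, since it passed the filter through WTCM at day 4.

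The label difference itself changed between days for 7 of the 9 genes, all of them with a smaller or lower APCCM over WTCM difference at day 4 than at day 2. This interaction was called for 2.13% of all tested genes, and for 1.24% in the same direction. All 6 Paneth cell markers were also called in that direction, with a median log2 difference of -0.55, as were 2 of 7 goblet cell markers. The log2 difference between the label contrasts, day 4 minus day 2, was -1.71 ± 0.22 for Tnf (adjusted p = 3.7e-05), -1.60 ± 0.15 for Ccl20 (4.6e-07) and -1.38 ± 0.27 for Csf1 (0.0036). It was -0.86 ± 0.12 for Cxcl16, -0.80 ± 0.13 for Tnfaip3, -0.59 ± 0.11 for Nfkbia and -0.56 ± 0.10 for Relb, with adjusted p-values from 7.3e-05 to 0.0024. Cxcl1, at -2.85 ± 0.80 (adjusted p = 0.068), and Birc3, at -0.08 ± 0.09 (adjusted p = 0.83), were not called. The same 4 groups enter this test and the label and day comparisons above. Leaving out the WTCM day 4 library that stood apart also gave 7 calls.

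In untreated organoids at day 2 the 10 genes did not move together. Between Apc mutant and wild type libraries 5 of the 9 tested genes were called, 4 lower and 1 higher, where 62.5% of all tested genes were called, 30.1% lower and 32.4% higher. Ccl20 was at 0.139 and 0.306 CPM in Apc mutant libraries (7 counts in all), against 10.5 and 11.2 CPM in wild type libraries (231 counts), with a log2 fold change of -5.53 ± 0.31 (adjusted p = 6.9e-14). The wild type over mutant count ratio was 47.5, with a 95% interval from counting error alone of 22.7 to 119. Birc3 was at 8.67 and 10.4 CPM in Apc mutant libraries, against 31.4 and 32.1 CPM in wild type ones, a log2 fold change of -1.73 ± 0.10 (adjusted p = 2.1e-13). Nfkbia was lower by a smaller amount, at 19.3 and 22.8 CPM in Apc mutant libraries, against 38.1 and 26.7 CPM in wild type ones, a log2 fold change of -0.64 ± 0.12 (adjusted p = 8.1e-05). Tnfaip3 was at 12.9 and 15.1 CPM in Apc mutant libraries, against 18.5 and 22.5 CPM in wild type ones, a log2 fold change of -0.53 ± 0.14 (adjusted p = 0.0024). The share of all tested genes whose untreated groups did not overlap was not counted. Both mutant libraries lay below both wild type libraries for these 4 genes. Sums of markers of differentiated epithelium moved with them. Enterocyte markers summed to 341 ± 3.39 CPM in Apc mutant and 8045 ± 235 CPM in wild type libraries. Most of the mutant sum was Anpep, called higher in Apc mutant libraries (296 ± 1.38 against 139.8 ± 7.79 CPM), while the other 6 were called lower. Paneth cell markers summed to 802 ± 34.1 CPM in Apc mutant and 6911 ± 172 CPM in wild type libraries. Mmp7 likewise made up most of that mutant sum and was called higher (536 ± 24.75 against 134 ± 8.66 CPM), while the other 5 were called lower. Goblet cell markers summed to 207 ± 4.53 CPM in Apc mutant and 3009 ± 155 CPM in wild type libraries. Enteroendocrine markers summed to 4.41 ± 0.255 CPM in Apc mutant and 444 ± 3.48 CPM in wild type libraries, and 8 general epithelial markers to 3621 ± 230 CPM in Apc mutant and 6226 ± 385 CPM in wild type libraries. The sum of the 7 M cell and follicle-associated markers went the other way, at 244 ± 8.61 CPM in Apc mutant and 109.6 ± 5.94 CPM in wild type libraries (SD, n = 2 each). These markers did not move together. Of the 5 tested, 2 were called higher, Marcksl1 (log2 fold change 2.18 ± 0.10) and Anxa5 (1.6 ± 0.10). Another 2 were called lower, like Ccl20: Ccl9 (-3.80 ± 0.14) and Spib (-3.5 ± 0.45). The part of these shifts in the 4 lower genes was not tested.

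Csf1 went the other way, at 13.8 and 13.2 CPM in untreated Apc mutant libraries, against 1.15 and 0.546 CPM in untreated wild type ones, a log2 fold change of 3.92 ± 0.30 (adjusted p = 2.9e-11). The wild type values rest on 14 and 5 counts. The summed level of 10 fibroblast and stromal marker genes moved with Csf1, at 271 to 287 CPM in untreated Apc mutant libraries, against 5.57 to 6.38 CPM in untreated wild type libraries. Nearly all of that sum was Vim, at 278 ± 10.6 CPM in Apc mutant libraries (SD, n = 2), while Col1a2, Col3a1, Dcn, Lum and Thy1 were at 0 in both groups. Its part in the Csf1 difference was not tested. Relb (17.7 and 19.8 CPM in Apc mutant, 21.4 and 19.4 CPM in wild type libraries) and Cxcl16 (15.1 and 15.9 CPM in Apc mutant, 15.9 and 15.7 CPM in wild type libraries) were not called, with adjusted p = 0.34 and 0.88. Cxcl1 had 0 counts in Apc mutant and 2 counts in wild type libraries, and no fold is given.

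The APCCM over WTCM contrast at day 2 was then set against the Apc mutant over wild type contrast in untreated organoids. The difference of the contrasts, conditioned medium minus untreated, was called positive for 7 genes and negative for Csf1, where 53.1% of all tested genes were called, 26.7% in the positive and 26.4% in the negative direction. It was 7.13 ± 0.32 on the log2 scale for Ccl20, 2.61 ± 0.36 for Tnf, 1.97 ± 0.12 for Birc3, 1.39 ± 0.16 for Cxcl16, 1.37 ± 0.15 for Nfkbia, 1.32 ± 0.17 for Tnfaip3, 0.48 ± 0.13 for Relb and -2.74 ± 0.41 for Csf1. The fitted value for Cxcl1, 5.92 ± 2.18, rests on the 0 counts of the untreated mutant libraries and is not counted here. Its call (adjusted p = 0.025) was lost without untreated Apc mutant replicate 4 (0.063) or 5 (0.074), and without untreated wild type replicate 4, where the value was 2.01 (adjusted p = 1). The untreated libraries also differed in library content: the noncoding gene Gm26917 took 0.00387% to 0.00952% of their gene counts, against 7.68% to 11.5% in conditioned medium. Of all their reads, 4.78% to 7.32% fell in no gene, against 14.4% to 19.2% in conditioned medium. Treatment and library content cannot be told apart in this comparison. The contrasts themselves are also unlike, since Notum and Nkd1 levels in the APCCM libraries went against the Apc mutant label. Their difference can therefore not be read as a change of an Apc effect by conditioned medium.

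Set against each other per kilobase of exon, the levels kept a wide order in every group. Nfkbia had the highest level per kilobase in all 6 groups, at 82.7 ± 3.45 CPM per kb in APCCM and 75.1 ± 4.81 in WTCM libraries at day 4, 50.3 ± 3.56 in APCCM and 30.2 ± 1.19 in WTCM libraries at day 2, and 13.1 ± 1.53 in untreated Apc mutant and 20.1 ± 4.99 in untreated wild type libraries (SD). Ccl20 ranked 2 of 10 in APCCM at day 2, at 15.8 ± 0.635 CPM per kb, 5 of 10 in WTCM at day 2, at 5.21 ± 0.468 CPM per kb, and 8 of 10 in untreated Apc mutant libraries. Cxcl1 and Cxcl5 had the lowest levels per kilobase in all groups. Several neighbours in the order did not differ beyond their spread, meaning that the gap of their means was under the sum of their SDs. These were Tnfaip3 and Tnf in APCCM at day 2, Cxcl16, Ccl20 and Relb in APCCM at day 4, and Birc3, Cxcl16 and Ccl20 in WTCM at day 2. The same held for Relb and Ccl20, and for Birc3 and Tnfaip3, in WTCM at day 4, for Cxcl16 and Relb in both untreated groups, for Tnfaip3 and Birc3 in untreated Apc mutant, and for Csf1, Cxcl1 and Cxcl5 in untreated wild type libraries.

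Across the 12 libraries in conditioned medium, likeness to Tnf was measured as the root mean square difference of log2 CPM (prior count 2), each gene centred on its own mean. Among members, Ccl20 was nearest to Tnf at 0.361, followed by Cxcl16 at 0.392, Csf1 at 0.503, Tnfaip3 at 0.514 and Nfkbia at 0.545. Cxcl1 at 0.639, Relb at 0.711 and Birc3 at 0.723 were farther away. The nearest genes outside the 10 were Rspo4 at 0.319, Samd4 at 0.33 and 4930539E08Rik at 0.34. Rspo4, which encodes an R-spondin, averaged 3.17 ± 0.0862 CPM in APCCM and 1.93 ± 0.314 CPM in WTCM libraries at day 4, and 2.60 ± 0.500 CPM in APCCM and 0.666 ± 0.144 CPM in WTCM libraries at day 2 (SD, n = 3 each). These libraries share their groups, so likeness here is a description of 4 group levels and their spread.

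A further 74 genes of the NF-kB pathway were grouped by role. Their day 2 counts stand beside 8.54% of all tested genes called higher and 8.15% called lower. At day 2, of 9 subunits and kinases, all tested, 1 was higher in APCCM than in WTCM libraries: Nfkb2, which encodes the precursor of p52 (log2 fold change 0.43 ± 0.08, adjusted p = 0.00026). Of 8 tested inhibitors out of 9, 3 were higher. The largest were Zc3h12a, which encodes the RNase Regnase-1 that degrades cytokine mRNAs (0.66 ± 0.06, adjusted p = 4.6e-08), and Nfkbiz (0.28 ± 0.05, adjusted p = 0.00087). Of 19 tested receptors and adapters out of 21, 5 were higher and 2 lower. Il1rn, which encodes the antagonist of the interleukin-1 receptor, was at 20.6 ± 3.66 CPM in APCCM and 9.02 ± 1.22 CPM in WTCM libraries, and Tlr4, the receptor for lipopolysaccharide, at 3.36 ± 1.23 CPM in APCCM and 1.75 ± 0.461 CPM in WTCM libraries (SD, n = 3 each).

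Of 22 tested further targets out of 35, 12 were higher and 1 lower at day 2, with a median log2 fold change of 0.37. Nos2, which encodes inducible nitric oxide synthase, was at 70.6 ± 3.60 CPM in APCCM and 8.75 ± 1.35 CPM in WTCM libraries (SD, n = 3 each; log2 fold change 3.02 ± 0.13, adjusted p = 3e-14). Duoxa2, the maturation factor of the hydrogen peroxide producing enzyme DUOX2, was at 5.24 ± 1.08 CPM in APCCM and 1.09 ± 0.308 CPM in WTCM libraries (SD, n = 3 each; 2.25 ± 0.25, adjusted p = 4.5e-07). At day 4, Nos2 was at 19.0 ± 3.10 CPM in APCCM and 12.1 ± 1.97 CPM in WTCM libraries (SD, n = 3 each). Where 7.83% of all tested genes were called higher, 8 of the 22 tested further targets were. Reg3g, an antibacterial lectin, led these at 818 ± 44.4 CPM in APCCM and 284 ± 13.9 CPM in WTCM libraries at day 4 (SD, n = 3 each; 1.53 ± 0.07, adjusted p = 2.9e-13). The label contrast was lower at day 4 than at day 2 for Nos2 (-2.34 ± 0.18, adjusted p = 5e-08), Duoxa2 (-2.25 ± 0.37, adjusted p = 0.00078), Zc3h12a (-0.83 ± 0.09, adjusted p = 2.9e-06), Nfkbiz (-0.47 ± 0.08, adjusted p = 0.00078) and Nfkb2 (-0.50 ± 0.10, adjusted p = 0.0073). Of these, Nfkbiz was called higher in APCCM libraries at day 2 and lower at day 4, while Zc3h12a (-0.16 ± 0.06, adjusted p = 0.068) and Nfkb2 (-0.08 ± 0.07, adjusted p = 0.53) were not called at day 4. In untreated Apc mutant organoids 12 further targets were lower and 6 higher than in wild type, where 30.1% of all tested genes were lower and 32.4% higher. Pigr, the antibody transporter, was at 6.40 ± 0.564 CPM in Apc mutant and 3098 ± 126 CPM in wild type libraries (SD, n = 2 each).

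At day 4 in conditioned medium, 1 subunit was called, Rela, which encodes the main activating subunit and was lower in APCCM libraries (log2 fold change -0.28 ± 0.06, adjusted p = 0.0023). The inhibitor Nfkbiz was lower as well (-0.20 ± 0.06, adjusted p = 0.017), as was N4bp1 (-0.19 ± 0.06, adjusted p = 0.032), while 3 receptors and adapters were higher and 1 lower. In this comparison 7.83% of all tested genes were called higher and 7.8% lower. Il1rn was still higher in APCCM libraries (1.01 ± 0.14, adjusted p = 1.9e-05). Between days in WTCM libraries, calls were 2 higher and 1 lower among subunits and kinases, 3 higher and 1 lower among inhibitors, 5 higher and 1 lower among receptors and adapters, and 9 higher and 1 lower among further targets. Over all tested genes 12.5% were called higher and 11.6% lower. Zc3h12a (0.81 ± 0.06, adjusted p = 2.7e-09) and Tnip1, a partner of A20 (0.44 ± 0.07, adjusted p = 5.4e-05), led the inhibitors. Between days in APCCM libraries, 7 further targets were higher and 4 lower, the largest change being that of Nos2 (-1.89 ± 0.11, adjusted p = 4.3e-11). There, 12.2% of all tested genes were called higher and 11.7% lower.

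In untreated organoids the inhibitors Nfkbiz and Zc3h12a were lower in Apc mutant than in wild type libraries, like Nfkbia and Tnfaip3. Nfkbiz was at 11.5 and 12.4 CPM in the mutant libraries, against 43.5 and 45.7 CPM in the wild type ones, and Zc3h12a averaged 6.40 ± 0.907 CPM in Apc mutant and 17.7 ± 1.51 CPM in wild type libraries (SD, n = 2 each). The share of all tested genes called there was 62.5%, with 32.4% higher and 30.1% lower. Of the 8 tested inhibitors 4 were lower and 1 higher, and of the 9 subunits and kinases 5 were higher and 2 lower. Rela averaged 89.2 ± 8.50 CPM in Apc mutant and 39.1 ± 1.73 CPM in wild type libraries (SD, n = 2 each). Of the 19 tested receptors and adapters 7 were higher and 7 lower, with Tlr4 at 15.1 ± 0.966 CPM in Apc mutant and 1.66 ± 0.271 CPM in wild type libraries (SD, n = 2 each).

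**Figure D4:**
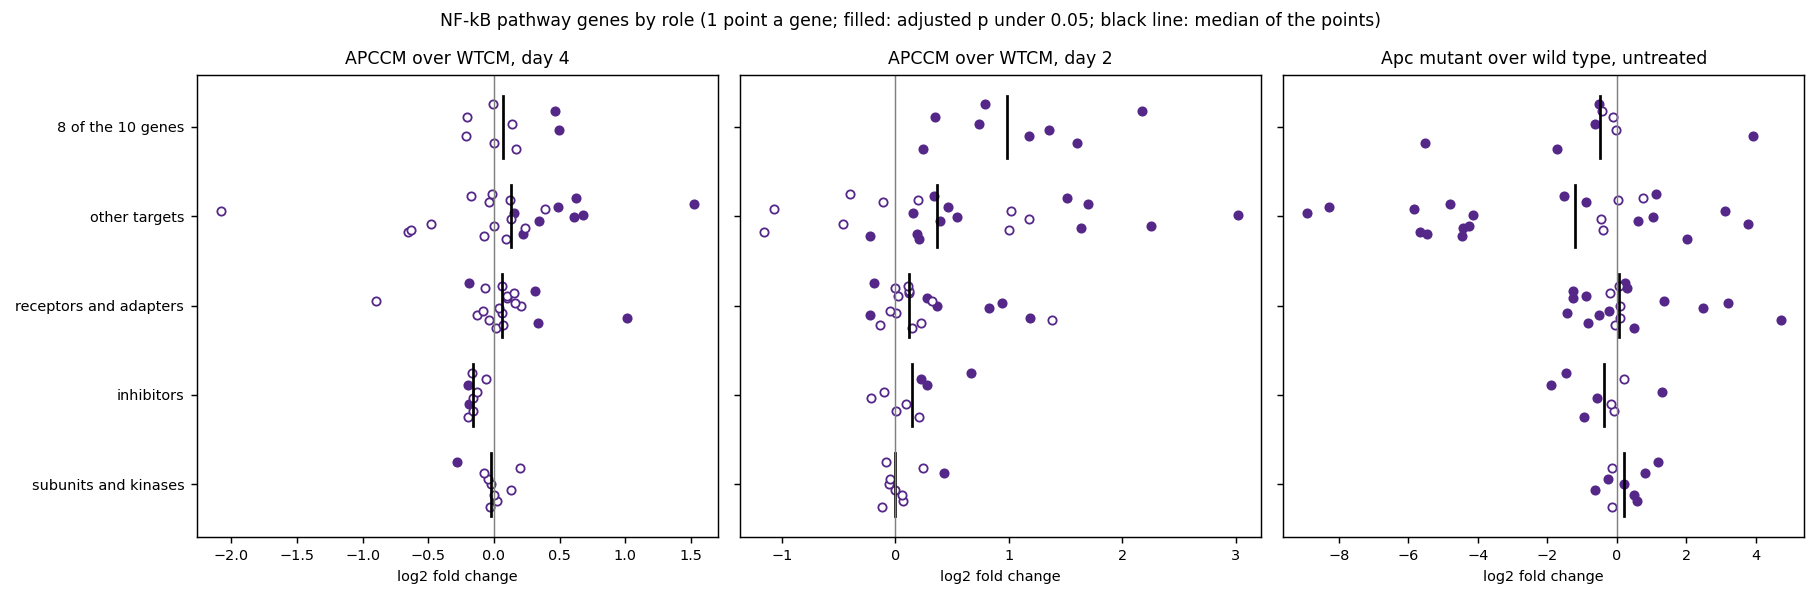
Log2 fold change (horizontal axis, with its own scale in each panel) of every tested NF-kB pathway gene by role (vertical axis), for APCCM over WTCM at day 4 and day 2 and for untreated Apc mutant over wild type, with filled points where the adjusted p was under 0.05 and a black line at the median. The first row shows 8 of the 10 members, without Cxcl1 and Cxcl5, with a day 2 median of 0.98, and the further targets have a day 2 median of 0.37.

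Receptors for the chemokines and for Csf1 were barely present: Cxcr2 and Ccr6 had 0 CPM in every library, Cxcr6 at most 0.109 CPM and Csf1r at most 0.542 CPM. Summed over 12 immune cell markers, levels were 4.70 to 5.21 CPM in APCCM and 4.99 to 5.82 CPM in WTCM libraries at day 4, 5.17 to 5.84 CPM in APCCM and 5.80 to 6.37 CPM in WTCM libraries at day 2, and 6.45 to 8.38 CPM in untreated Apc mutant and 6.98 to 7.11 CPM in untreated wild type libraries. Among these markers, Cd52 was at 0 in all groups but WTCM at day 4. The sum over 8 epithelial markers was 6777 to 7231 CPM in APCCM and 6370 to 6801 CPM in WTCM libraries at day 2. Krt20 was at 0 in untreated Apc mutant libraries. Some epithelial subtype sums differed between the labels at day 2. Goblet cell markers summed to 5266 to 6157 CPM in APCCM and 3996 to 4487 CPM in WTCM libraries, Paneth cell markers to 6066 to 6583 CPM in APCCM and 4568 to 4722 CPM in WTCM libraries, and crypt base stem cell markers to 2662 to 2848 CPM in APCCM and 3488 to 3723 CPM in WTCM libraries. Enteroendocrine markers summed to 833 ± 63 CPM in APCCM and 485 ± 12.7 CPM in WTCM libraries, tuft cell markers to 39.1 ± 4.85 CPM in APCCM and 28.2 ± 2.99 CPM in WTCM libraries, and enterocyte markers to 7862 ± 182 CPM in APCCM and 7853 ± 289 CPM in WTCM libraries (SD, n = 3 each). Of the M cell and follicle-associated markers, Gp2 and Sox8 were at 0 in both, and the 7 summed to 74.4 to 77.6 CPM in APCCM and 69.9 to 74.5 CPM in WTCM libraries. Of the 5 tested, 4 were nevertheless higher in APCCM libraries, like Ccl20: Tnfaip2 (log2 fold change 1.51 ± 0.24, adjusted p = 5.7e-05), Spib (0.62 ± 0.20, adjusted p = 0.038), Anxa5 (0.51 ± 0.10, adjusted p = 0.00053) and Ccl9 (0.30 ± 0.09, adjusted p = 0.018). Marcksl1 was lower (-0.32 ± 0.08, adjusted p = 0.0096), where 8.54% of all tested genes were called higher and 8.15% lower. The part of these shifts in the members' differences was not tested.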

How the data were processed

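The authors deposited raw read counts per gene, 1 table per library. The tools named in the submitters' processing notes are HTSeq 0.6.1p1, HISAT2 2.1.0 and Trimmomatic 0.36, with build GRCm38 and without options, strand setting or annotation release. Per the labels' protocols, libraries were made with KAPA RNA HyperPrep and RiboErase.

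Groups followed the titles and the genotype, treatment and day labels. Gene lists, members and tests were chosen with earlier results of these data known. Counts were fitted in R 4.3.3 with edgeR 4.0.16 (filterByExpr, TMM, 1 mean per group, 10 residual degrees of freedom, quasi-likelihood test, Benjamini-Hochberg over 16510 genes, threshold 0.05); code was checked on simulated counts. The common biological coefficient of variation was 5.96% and TMM factors ran from 0.898 to 1.26. Lines that name no gene did not enter library sizes. Of all reads in a library, 4.78% to 19.2% fell in no gene, 26.5% to 38.9% mapped to several places, 2.77% to 9.41% were not aligned and 0.46% to 0.599% were ambiguous.

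Every member was named. Of the other pathway genes, the text names those with the largest absolute fold change among the called genes of a role, at most 2 per role and comparison, for the comparisons described, plus the 3 tested genes most like Tnf. Nkd1, Notum, Gm26917, Vim and Nos2 at day 4 were added beside results they bear on, after their values were seen. The kappaB consensus was searched after a stricter and a looser spelling had been tried. Alternatives were RLE factors, no TMM factor, no filter, DESeq2 1.42.0, fits on the compared groups alone, a fit without Gm26917, histone and small RNA genes, a replicate block, and leaving out each library.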

Additional observations from a re-analysis of the deposited data

Results flagged for a closer look

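The label contrast in conditioned medium differed between day 4 and day 2 for 7 genes by a test of the difference itself (edgeR's quasi-likelihood interaction, all adjusted p at or under 0.0036), where 2.13% of all tested genes were called, 1.24% in this direction. On the log2 scale, day 4 minus day 2, the differences were -1.71 for Tnf, -1.60 for Ccl20, -1.38 for Csf1, -0.86 for Cxcl16, -0.80 for Tnfaip3, -0.59 for Nfkbia and -0.56 for Relb.

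At day 2, the APCCM over WTCM contrast differed from the untreated Apc mutant over wild type contrast for 8 genes. Cxcl1, given apart, was called too, by the same kind of test, among 53.1% of all tested genes. These contrasts are unlike, since Notum and Nkd1 levels in the APCCM libraries went against the Apc mutant label. On the log2 scale, conditioned medium minus untreated, the differences were 7.13 for Ccl20, 2.61 for Tnf, 1.97 for Birc3, 1.39 for Cxcl16, 1.37 for Nfkbia, 1.32 for Tnfaip3, 0.48 for Relb and -2.74 for Csf1. The value for Cxcl1, 5.92, rests on 0 counts in the untreated Apc mutant libraries. Its call was lost without untreated Apc mutant replicate 4 (adjusted p = 0.063) or 5 (0.074), and without untreated wild type replicate 4 the value was 2.01 (adjusted p = 1).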

How the results depend on the processing

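Of 442 values of single genes under other settings, 419 kept their direction and their side of the threshold, and 415 of 443 did so when 1 library was left out. At day 4 in conditioned medium, DESeq2 called 1 member (Cxcl16) and a fit on the 2 compared groups alone called 5, 4 higher and 1 lower, beside 2; without APCCM replicate 3 the count was 1 (range 1 to 2 over the libraries left out). Without APCCM replicate 2 or WTCM replicate 3 the 2 were Cxcl16, higher, and Relb, lower. Fitted on its own groups alone, the label by day interaction was called for 568 genes, beside 351. Genes called at day 2 between labels ranged from 1725 (without APCCM replicate 3) to 2484 with 1 library left out, beside 2755. DESeq2 gave no adjusted p for Cxcl1 in the comparisons within conditioned medium. Values near 0 changed sign. For the day 4 label contrast these were Ccl20 (0.0073 with DESeq2, 0.037 without TMM, 0.0098 with RLE factors, 0.0053 without Gm26917, histone and small RNA genes; -0.078 to 0.097 with 1 library left out) and Tnfaip3 (0.0025, 0.035, 0.0055 and 0.0013 in the same order; -0.098 to 0.12). Without TMM, untreated Cxcl16 was 0.14 and Relb 0.040, and Relb between days in APCCM libraries was -0.0092. With 1 library left out, untreated Cxcl16 ran from -0.064 to 0.0084, Relb between days in APCCM libraries from -0.034 to 0.070 and Cxcl1 from -0.034 to 0.55. The cause of these changes was not tested.

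Correlations of same-numbered deviations were -0.0492 to 0.0529 in conditioned medium. Between APCCM day 4 and day 2 they were all positive (0.0456, 0.0529 and 0.0497), beside -0.0648 to 0.0192 for unlike numbers. In untreated libraries, with 2 a group, same-numbered and crossed values (-0.149 and 0.149) mirror each other by construction and cannot show whether numbers pair libraries. Whether the replicate numbers pair libraries was not settled. With the replicate number as a block, 2327 genes were called between labels at day 2, 2234 at day 4, 10088 in untreated organoids, 3556 and 3525 between days in APCCM and WTCM libraries, 260 for the interaction with day and 8431 for that with medium. Members called were 8, 2, 5, 3, 9, 7 and 9 in the same order. Both counts of 9 include Cxcl1, which is given apart above, and its day 2 call was lost (adjusted p = 0.066). With the 2 untreated numbers crossed, an alternative added after seeing the data, 10563 genes and 5 members were called. Counts limit Cxcl1 and Cxcl5, and the untreated libraries were shallower than the others.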
